A study of Mus musculus with 20 samples.

Results

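The genes described here are members of the p53 feedback loop and of the growth arrest arm of the p53 response: Trp53, Mdm2, Mdm4, Ppm1d, Ccng1, Gtse1, Cdkn1a, Btg2, Plk2 and Psrc1. They were measured in C2C12 myotubes given hydrogen peroxide (H2O2), and every probe set whose only gene symbol in the platform annotation is one of these names was taken. That gave 17 of the 22690 probe sets of the array, for 9 of the 10 genes. Trp53 was not analysed here, because the annotation used lists no probe set with that symbol alone. Of the 17 probe sets, 16 passed a filter on dim signals and were tested, and 14 of these lay above the filter level on all 20 arrays. The exceptions were Psrc1 1425416_s_at, above it on 19 arrays, and Mdm4 1419558_at, above it on 9.

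C2C12 is an established mouse myoblast line whose cells fuse into multinucleated, contractile myotubes when serum is lowered. All groups shared the same line and the same 96 h of differentiation, followed by 2 h in medium with 0.5% horse serum. They differed only in the H2O2 added for those 2 h, which was 0, 1, 10, 100 or 1000 µM, with 4 arrays at each dose and 20 arrays in all. H2O2 is a membrane-permeable oxidant that damages DNA and oxidises protein thiols. The question at each dose is how these genes differed from untreated myotubes. The model is a single line in culture with no genetic change named. Nothing states that the 4 samples of a dose came from separate cultures, so the p-values cover the spread among these arrays alone, and that spread may be technical.

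p53 is a transcription factor that is held low in unstressed cells by MDM2, a ubiquitin ligase that sends it to the proteasome. Damage signals loosen that hold, and p53 then switches on genes that stop the cell cycle together with genes that switch p53 itself off again, the Mdm2 gene among them, which closes a negative feedback loop. In muscle, CDKN1A, the cyclin-dependent kinase inhibitor p21, is also known for its high level in differentiating myotubes, which have left the cell cycle for good.

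Promoter sequence is shown for the 6 genes with a match to the p53 decamer or to the cAMP response element, both described below. They were not picked by their response to H2O2. Mdm4, Psrc1 and Gtse1 had neither motif and are not shown. The windows are the 250 bases before the start, 5′ to 3′ on the gene's strand, in mouse assembly GRCm38.p6 from RefSeq, and all 9 measured genes matched, with 13 start sites. Capitals mark matches to the p53 decamer, which is the 10-base unit of the p53 binding consensus, to a pair of adjacent decamers with at most 1 mismatch (only in Cdkn1a), and to the cAMP response element TGACGTCA.
Cdkn1a, upstream start (chr17:29090729-29090978, plus strand): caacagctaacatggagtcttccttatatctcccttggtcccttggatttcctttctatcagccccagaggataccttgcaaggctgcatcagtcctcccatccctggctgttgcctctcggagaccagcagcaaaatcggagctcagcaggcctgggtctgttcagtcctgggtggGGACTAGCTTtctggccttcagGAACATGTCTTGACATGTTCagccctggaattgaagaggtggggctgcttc
Mdm2 (chr10:117710759-117711008, minus strand): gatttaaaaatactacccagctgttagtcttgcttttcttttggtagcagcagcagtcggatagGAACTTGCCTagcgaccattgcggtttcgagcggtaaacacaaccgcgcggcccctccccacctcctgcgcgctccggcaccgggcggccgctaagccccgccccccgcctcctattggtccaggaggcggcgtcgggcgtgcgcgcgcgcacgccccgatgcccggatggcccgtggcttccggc
Ccng1 (chr11:40755287-40755536, minus strand): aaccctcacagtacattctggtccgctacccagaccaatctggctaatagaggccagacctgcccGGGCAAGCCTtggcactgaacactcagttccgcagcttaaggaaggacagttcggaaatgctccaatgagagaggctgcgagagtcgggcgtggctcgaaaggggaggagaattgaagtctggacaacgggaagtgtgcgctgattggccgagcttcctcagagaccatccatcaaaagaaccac
Ppm1d (chr11:85311004-85311253, plus strand): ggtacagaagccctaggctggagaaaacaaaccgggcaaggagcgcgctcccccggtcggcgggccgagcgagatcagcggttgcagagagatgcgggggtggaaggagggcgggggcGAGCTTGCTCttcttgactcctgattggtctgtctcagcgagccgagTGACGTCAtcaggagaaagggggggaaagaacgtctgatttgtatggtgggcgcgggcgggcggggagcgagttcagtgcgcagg
Btg2 (chr1:134079156-134079405, minus strand): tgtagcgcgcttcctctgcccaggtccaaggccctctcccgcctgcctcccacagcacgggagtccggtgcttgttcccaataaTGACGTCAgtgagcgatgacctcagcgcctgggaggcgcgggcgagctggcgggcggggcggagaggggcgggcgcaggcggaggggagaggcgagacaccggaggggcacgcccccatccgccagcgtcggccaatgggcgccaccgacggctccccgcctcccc
Plk2 (chr13:110394794-110395043, plus strand): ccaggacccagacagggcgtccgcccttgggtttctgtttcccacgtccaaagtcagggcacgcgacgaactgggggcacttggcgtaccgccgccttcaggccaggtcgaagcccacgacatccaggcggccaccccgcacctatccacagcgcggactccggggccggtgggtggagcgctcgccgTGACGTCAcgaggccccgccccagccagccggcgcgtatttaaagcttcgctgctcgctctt

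Motifs were searched on both strands of 32851 windows of the same length, and they were chosen with these sequences in view. A p53 decamer was found in 7.13% of all windows and in 4 of the 13 member windows, those of Mdm2, Ccng1, Ppm1d and the upstream start of Cdkn1a. Adjacent decamers were 2 in a row with at most 1 mismatch in all, and with no mismatch allowed in the core letters CWWG (W is A or T) of either. Such pairs were in 15 windows, 0.0457% of the total. One of those 15 belongs to Cdkn1a, with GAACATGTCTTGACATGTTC at positions -51 to -32, before a start that lies 2790 bases upstream of its other start. The cAMP response element was in 1.55% of all windows and in 3 member windows, at -166 in Btg2, -62 in Plk2 and -85 in Ppm1d. The antioxidant response element core TGACNNNGC, in 10.2% of windows, was in 0 of the 13. The AP-1 site TGANTCA, in 6.75%, was in 1, a start of Mdm4, and the CCAAT box, in 33.8%, was in 8. Windows of the same gene overlap for Psrc1 and Gtse1, and a CCAAT box of Psrc1 is counted in both of its windows. Single decamers inside adjacent pairs are counted among the decamers. A match is a run of letters in this window only.

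The 5 arrays called replicate 1, 1 at each dose, stood apart from the other 15 on the leading principal component, which held 28.2% of the variance, and values for replicate 1 and for replicates 2 to 4 are given below for some results. Among called probe sets the difference from untreated at 1000 µM was 0.95 in replicate 1 and 1.67 in replicates 2 to 4 for Btg2 1416250_at, 0.57 and 1.14 for Btg2 1448272_at, and 0.79 and 1.39 for Psrc1 1425416_s_at. That of Ccng1 1450016_at at 100 µM was 0.23 and 0.81. One of the 5, at 10 µM, carries no replicate number in its title, and "replicate 1" is only a name for it. All 20 myotube markers examined were above the filter level on all 20 arrays. Their summed signal ran from 113100 to 134600 in untreated arrays, 137200 to 141500 at 1 µM and 128500 to 165000 at 10 µM. It ran from 128900 to 147300 at 100 µM and 139600 to 151400 at 1000 µM. Of 7 reserve or satellite cell markers on the array, 6 passed the filter, among them Itga7 and Cdh15, above the filter level on all 20 arrays. The satellite cell factor Pax7 was the exception, below that level on every array. Of 8 fibroblast markers 6 passed, and all 3 adipocyte markers on the array were below the level on every array. At 1000 µM the median log2 signal of all probe sets lay 0.203 below that of untreated arrays under the authors' scaling, and the changes below are on that scaling unless stated.

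At 1 and 10 µM no probe set of these genes passed the test, and the response appeared between 10 and 100 µM. A change is given as a log2 difference ± SE with n = 4 arrays a group, and it is called a rise or a fall at a Benjamini-Hochberg adjusted p under 0.05 from limma over 14379 tested probe sets. At 1 µM, 0 of 16 probe sets were called (2 at an unadjusted p under 0.05), beside 0% of all tested probe sets. At 10 µM, 0 of 16 were called (3 unadjusted), beside 0.00695%. At 100 µM, 11 of 16 rose and 0 fell, beside 0.862% and 0.355% of all tested. At 1000 µM, 8 of 16 rose and 0 fell, beside 2.46% and 8.48%. The median over the 16 was 0.78 at 100 µM and 0.37 at 1000 µM, where the medians over all tested probe sets were -0.03 and -0.07. Because these are lysates of whole cultures, fewer cells of a type and less RNA per cell cannot be told apart.

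Counted by gene, with each gene led by its tested probe set of highest mean signal, 6 of 9 rose at 100 µM (Mdm2, Ccng1, Btg2, Plk2, Psrc1 and Gtse1), beside 0.993% of 8159 genes. At 1000 µM 5 of these 6 rose, all but Gtse1, beside 2.64%. Mdm4, Cdkn1a and Ppm1d were not called at either dose. The 4 arrays at 100 µM lay wholly above the 4 untreated arrays for 13 of the 16 probe sets, beside 3.79% of all tested. At 1000 µM they lay wholly above for 9, beside 6.66%, and wholly below for 1, of Mdm4, beside 13.8%. The moderated F-test over the 5 doses called 11 of 16, beside 8.01%. The design text describes a stricter rule, in which every treated array differs from every control array in 1 direction and the mean fold exceeds 1.75. Applied to the signals, without that software's own difference calls, this rule took 8 of 16 probe sets at 100 µM, beside 0.675% of all tested, and 7 at 1000 µM, beside 2.14%.

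**Figure D1:**
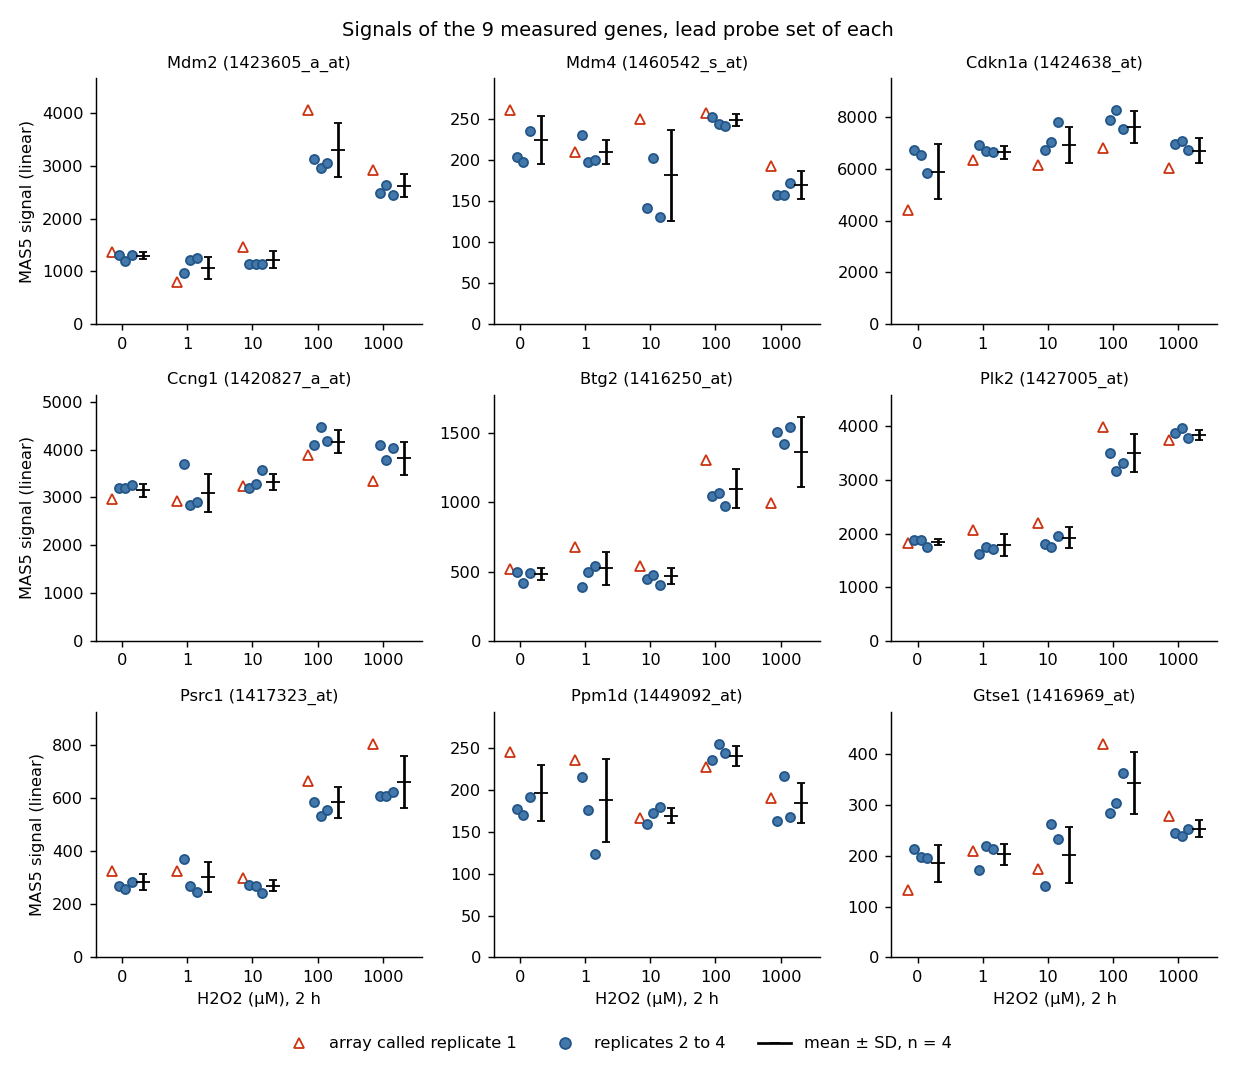
Deposited linear signal of the lead probe set of each of the 9 measured genes against H2O2 dose, with the array called replicate 1 as an open triangle, the other arrays as filled circles, and the mean ± SD (n = 4) beside them. Mdm2, Btg2, Plk2 and Psrc1 sit on a low level through 10 µM and on a higher one at 100 and 1000 µM, while Mdm4, Cdkn1a and Ppm1d stay within overlapping or nearly overlapping ranges at most doses.

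Mdm2, the ubiquitin ligase that degrades p53, rose more than 2-fold at 100 and 1000 µM. By its lead probe set 1423605_a_at the untreated signals were 1365, 1320, 1200 and 1315, and those at 100 µM were 4056, 3131, 2957 and 3057. At 1000 µM the signals were 2930, 2494, 2643 and 2446. Every array at 100 and 1000 µM lay above every array at 0, 1 and 10 µM, and every array at 1000 µM lay below every array at 100 µM. The log2 difference from untreated was 1.33 ± 0.13 at 100 µM (adjusted p = 1.9e-06) and 1.01 ± 0.13 at 1000 µM (adjusted p = 2.48e-05).

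The lower doses did not raise Mdm2. Its lead probe set read 806, 971, 1211 and 1250 at 1 µM and 1462, 1144, 1144 and 1136 at 10 µM, and both groups overlapped the untreated arrays. The difference at 1 µM was -0.32 ± 0.13, with an adjusted p of 0.708, and in replicates 2 to 4 it was -0.17. A further probe set of Mdm2, 1427718_a_at, rose by 1.74 ± 0.10 at 100 µM (adjusted p = 7.7e-10) and 1.29 ± 0.10 at 1000 µM (8.48e-08). Its means were 694 ± 35.0 (SD, n = 4) untreated, 705 ± 90.9 at 1 µM, 718 ± 38.9 at 10 µM, 2327 ± 236 at 100 µM and 1703 ± 161 at 1000 µM. By absolute change at 100 µM this probe set ranked 15 of 14379 and the lead probe set 33.

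Mdm4, a relative of MDM2 that binds p53 and blocks its activation domain, did not rise with Mdm2. Its lead probe set 1460542_s_at read 260, 204, 197 and 235 in untreated arrays and 257, 251, 243 and 242 at 100 µM. The log2 difference was 0.16 ± 0.16, with a 95% interval from -0.18 to 0.49 and an adjusted p of 0.788. At 1000 µM the signals were 192, 157, 157 and 172, all below the lowest untreated array of 197. That difference was -0.40 ± 0.16 (adjusted p = 0.122) and was called with the replicate 1 arrays as a batch term (adjusted p = 0.0445), with p from 0.026 upward over the alternatives run. Its dimmer probe set 1419558_at read 42.3 to 111 over the 20 arrays and differed by -0.04 ± 0.24 at 100 µM and -0.30 ± 0.24 at 1000 µM, with neither called.

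Ppm1d encodes WIP1, a phosphatase that removes activating phosphates from p53 and from the kinases that signal to it. The signals of 1449092_at were 245, 178, 170 and 192 untreated, 228, 236, 255 and 245 at 100 µM, and 190, 164, 216 and 168 at 1000 µM. The array called replicate 1 was the highest of the untreated ones, and it overlapped the 100 µM group. The difference at 100 µM was 0.31 ± 0.17, with a 95% interval from -0.04 to 0.65 and an adjusted p of 0.519. Within replicates 2 to 4 it was 0.45 (adjusted p = 0.207), and in replicate 1 alone it was -0.11. It was called in 1 alternative, with array weights (0.43, adjusted p = 0.0378). At 1000 µM the difference was -0.08 ± 0.17 (adjusted p = 0.805).

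Ccng1 encodes cyclin G1, which brings a phosphatase to MDM2 and is a well-known p53 target. The lead probe set 1420827_a_at read 2959, 3192, 3190 and 3259 untreated and 3898, 4098, 4472 and 4187 at 100 µM, with no overlap. The rise was 0.40 ± 0.09 (adjusted p = 0.0167), and it lost its call without 100 µM replicate 3 (0.0618) or replicate 4 (0.0526). At 1000 µM the signals were 3346, 4101, 3794 and 4026, again all above untreated, for a difference of 0.27 ± 0.09 (adjusted p = 0.0432). That call ended in 11 of 20 alternatives, among them quantile normalization (adjusted p = 0.26). Those 11 included every fit that left out a single array of either group, except 1000 µM replicate 1 (0.0643 to 0.129).

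Both other probe sets of Ccng1 rose at 100 µM, and neither was called at 1000 µM. 1450016_at rose by 0.66 ± 0.13 at 100 µM (adjusted p = 0.0116) and differed by 0.26 ± 0.13 at 1000 µM (0.223). The untreated signals of this probe set were scattered, from 1583 to 2905, and the array called replicate 1 was the highest of them. In replicates 2 to 4 the difference at 1000 µM was 0.41 and was called (adjusted p = 0.0237). 1450017_at rose by 0.46 ± 0.09 at 100 µM (adjusted p = 0.00629), from 1823 ± 48.2 (SD, n = 4) to 2517 ± 157. Its difference from untreated at 1000 µM was 0.08 ± 0.09 (adjusted p = 0.596), with a mean of 1940 ± 209, and it was called with arrays centred on the median of all probe sets (0.29, adjusted p = 0.0269).

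Gtse1, whose protein is made in S and G2 phase, binds p53 and carries it out of the nucleus, rose at 100 µM. The signals of 1416969_at were 133, 214, 198 and 196 untreated and 420, 285, 304 and 364 at 100 µM, with no overlap. The log2 difference was 0.90 ± 0.18 (adjusted p = 0.0123). Its size leaned on the replicate 1 arrays, the lowest untreated and the highest at 100 µM: it was 1.66 between those arrays and 0.64 in replicates 2 to 4, where the adjusted p was 0.0768. The call also ended without 100 µM replicate 1 (0.06). At 1000 µM the signals were 279, 245, 239 and 252, all above untreated, for a difference of 0.47 ± 0.18 (adjusted p = 0.0994). That difference was called when arrays were centred on the median of all probe sets (0.68, adjusted p = 0.0227).

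Markers of cycling cells were measured beside Gtse1, because its mRNA is one of dividing cells. Of 28 such markers, 0 rose and 1, Plk1, fell at 100 µM, beside 0.993% and 0.404% of all genes. All 28 were above the filter level on all 20 arrays. The summed signal of the markers ran from 31990 to 34380 in untreated arrays, from 34930 to 36110 at 1 µM and from 34950 to 37400 at 10 µM. It ran from 31440 to 32380 at 100 µM and from 33340 to 39520 at 1000 µM. At 1000 µM 4 of the 28 rose (Pcna, Birc5, Mcm6 and Tk1) and 1 fell (Mki67), beside 2.64% and 8.05% of all genes. The part of cycling cells in the levels of Gtse1 was not tested.

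Cdkn1a, the p21 inhibitor of cyclin-dependent kinases, had a bright signal in untreated myotubes and was not called at any dose. Over the 20 arrays the mean log2 signal of 1424638_at stood at the 98.9th percentile of all probe sets. The signals were 4416, 6757, 6560 and 5866 untreated, 6336, 6923, 6710 and 6648 at 1 µM, and 6154, 6728, 7069 and 7834 at 10 µM. They were 6822, 7909, 8271 and 7565 at 100 µM and 6033, 6981, 7104 and 6739 at 1000 µM. The 100 µM arrays lay above all untreated ones, by a small margin, and the other groups overlapped the untreated arrays. The array called replicate 1 was the lowest of its group at every dose.

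For Cdkn1a the log2 difference at 100 µM was 0.39 ± 0.11, with a 95% interval from 0.16 to 0.62, and its adjusted p of 0.0984 missed the threshold. It passed in replicates 2 to 4 (0.31, adjusted p = 0.0195) and with replicate 1 as a batch term (0.39, adjusted p = 0.00287), the lowest p of the 20 alternatives. In replicate 1 alone the difference was 0.63. At 1000 µM it was 0.20 ± 0.11 (adjusted p = 0.248), and it was called with arrays centred on the median of all probe sets (0.41, adjusted p = 0.0354). A dimmer probe set, 1421679_a_at, read 892, 829, 782 and 744 untreated and 997, 1042, 1034 and 1020 at 100 µM, again with no overlap. Its difference at 100 µM was 0.34 ± 0.13 (adjusted p = 0.263; 0.0114 in replicates 2 to 4), and at 1000 µM -0.09 ± 0.13. The upstream window of this gene is the only one of the 13 with adjacent p53 decamers.

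Btg2, an antiproliferative protein that links mRNAs to the deadenylase complex, rose at both high doses. The lead probe set 1416250_at read 516, 498, 421 and 490 untreated, 1305, 1049, 1068 and 976 at 100 µM, and 994, 1505, 1418 and 1542 at 1000 µM. Both treated groups lay wholly above the untreated one. The differences were 1.19 ± 0.15 (adjusted p = 9.36e-05) and 1.49 ± 0.15 (2.58e-06). A further probe set, 1448272_at, rose by 1.26 ± 0.15 (4.06e-05) and by 1.00 ± 0.15 (0.000188), from 373 ± 61.1 (SD, n = 4) to 899 ± 199 and 741 ± 54.8.

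Plk2 encodes polo-like kinase 2, which acts in centriole duplication and in checkpoint responses. The signals of 1427005_at were 1826, 1878, 1876 and 1757 untreated, 3984, 3508, 3175 and 3315 at 100 µM, and 3740, 3871, 3960 and 3789 at 1000 µM. The untreated and 1000 µM groups were both tight, and they were far apart. Plk2 rose by 0.93 ± 0.09 (adjusted p = 1.9e-06) and by 1.07 ± 0.09 (1.42e-07). At 1 and 10 µM the means were 1785 ± 200 and 1926 ± 203, beside 1834 ± 56.8 in untreated myotubes, and neither dose was called (adjusted p = 0.979 at each).

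Psrc1, also called DDA3, is a microtubule-binding protein of the mitotic spindle. By 1417323_at the signals were 324, 268, 256 and 283 untreated, 666, 586, 533 and 554 at 100 µM, and 804, 607, 609 and 623 at 1000 µM. The groups at 100 and 1000 µM overlapped each other and lay above all arrays of the 3 lower doses. Psrc1 rose by 1.05 ± 0.13 (adjusted p = 4.61e-05) and 1.22 ± 0.13 (3.01e-06). Its dimmer probe set 1425416_s_at rose by 1.23 ± 0.15 (4.4e-05) and 1.24 ± 0.15 (1.58e-05), from 99.9 ± 20.9 (SD, n = 4) to 233 ± 37.6 and 232 ± 18.6. The third probe set, 1451698_at, read 4.3 to 75.8, never reached the filter level on any array and was not tested.

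**Figure D2:**
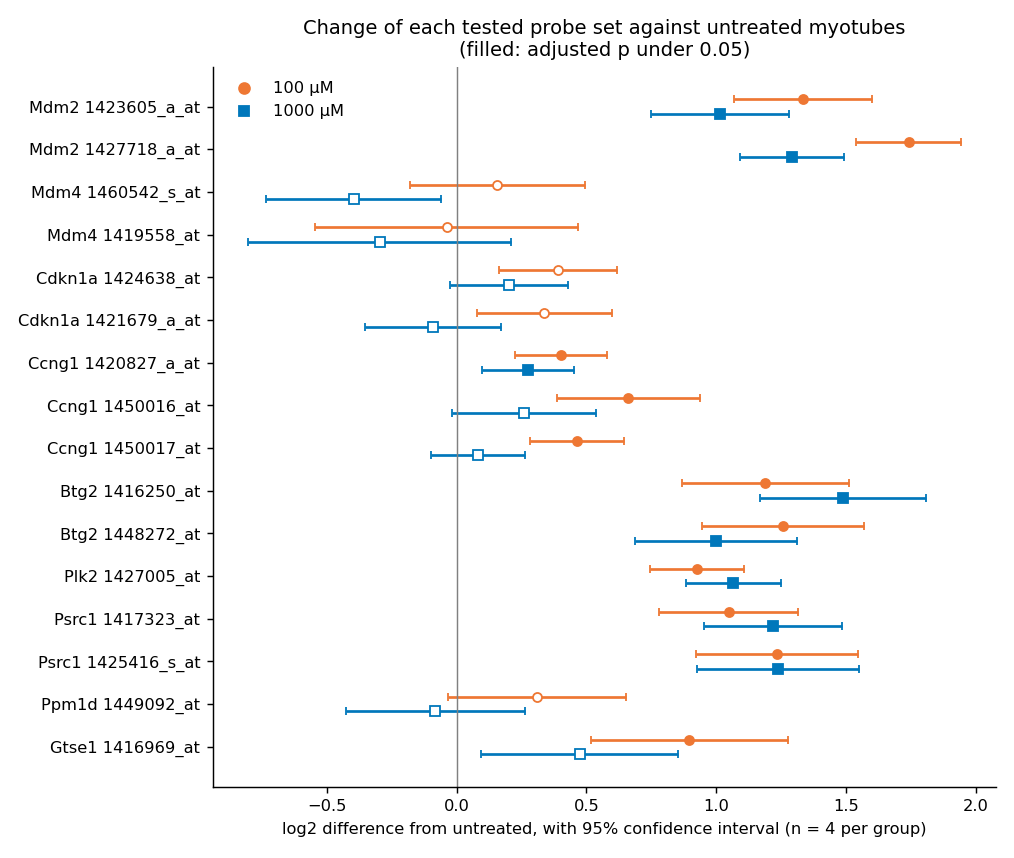
Log2 difference from untreated myotubes at 100 µM (circles) and 1000 µM (squares) for each of the 16 tested probe sets, with 95% confidence intervals and filled symbols for an adjusted p under 0.05. Probe sets of Mdm2, Btg2, Plk2 and Psrc1 lie between 0.93 and 1.74 with every interval above 0, and those of Mdm4 and Ppm1d lie between -0.40 and 0.31 with open symbols.

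From 10 to 100 µM, neighbours in the dose series, 10 of 16 probe sets rose and 0 fell, beside 0.772% and 0.16% of all tested. For 12 of 16 the arrays at 100 µM lay wholly above those at 10 µM, beside 3.54%. Mdm2 rose by 1.43 ± 0.13 over that step (lead probe set, adjusted p = 6.4e-07), Btg2 by 1.23 ± 0.15 (4.96e-05), Psrc1 by 1.11 ± 0.13 (1.89e-05) and Plk2 by 0.86 ± 0.09 (3.87e-06). Gtse1 rose by 0.79 ± 0.18 (0.0339), a call that ended in 11 of 20 alternatives. Among these were replicates 2 to 4 (0.63, adjusted p = 0.0914), quantile normalization (0.0726) and arrays centred on the median of all probe sets (0.0755). A further 5 of the 11 each left out a single array (0.0518 to 0.166). The lead probe set of Ccng1 differed by 0.33 ± 0.09 (0.0856) and passed in replicates 2 to 4 (adjusted p = 0.0365). Cdkn1a differed by 0.14 ± 0.11 (0.94), and Ppm1d by 0.51 ± 0.17 (0.248) with groups that did not overlap.

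Between 100 and 1000 µM Mdm2 and Ccng1 each had a probe set that fell, and no member rose. Of 16 probe sets, 2 fell, Mdm2 1427718_a_at and Ccng1 1450017_at, and 0 rose, beside 3.6% and 0.744% of all tested. A further 6, 1 each of Mdm2, Mdm4, Cdkn1a, Ccng1, Ppm1d and Gtse1, had lower means at an unadjusted p under 0.05 without passing. In 8 of 16 all arrays at 1000 µM lay below all arrays at 100 µM, beside 10.4%. In 0 did they lie wholly above, beside 4.44%. The crossed rule took 0, beside 1.38%.

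The fall of Mdm2 1427718_a_at was -0.45 ± 0.10 (adjusted p = 0.0086), and the lead probe set of Mdm2 differed by -0.32 ± 0.13 (0.175), called in replicates 2 to 4 (-0.27, adjusted p = 0.0421). Ccng1 1450017_at fell by 0.38 ± 0.09 on the log2 scale (adjusted p = 0.0137), a call that ended when arrays were centred on the median of all probe sets (-0.26, adjusted p = 0.106). Mdm4 differed by -0.55 ± 0.16 (0.0562), and was called in replicates 2 to 4 (-0.60, adjusted p = 0.0165). Cdkn1a 1421679_a_at differed by -0.43 ± 0.13 (0.055), and was likewise called there (-0.46, adjusted p = 0.00175). Ppm1d differed by -0.39 ± 0.17 (0.206) and Gtse1 by -0.42 ± 0.18 (0.217). The median log2 signal of all probe sets was itself lower by 0.125 at 1000 µM than at 100 µM, and the falls are not corrected for it.

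For Btg2 and Plk2 the call for the step from 100 to 1000 µM depended on the arrays used. The lead probe set of Btg2 differed by 0.30 ± 0.15 (adjusted p = 0.321): in replicates 2 to 4 it rose by 0.53 (0.00505), and between the arrays called replicate 1 it differed by -0.39. Plk2 differed by 0.14 ± 0.09 (0.441), with a rise of 0.22 in replicates 2 to 4 (0.0333) and -0.09 between the replicate 1 arrays. Psrc1 differed by 0.17 ± 0.13 (0.545), with 0.14 in replicates 2 to 4, not called there either, and 0.27 in replicate 1. Its dimmer probe set 1425416_s_at gave 0.134 in replicates 2 to 4, not called there (0.599), and -0.385 in replicate 1. Within replicates 2 to 4, 8 of 16 probe sets were called, in place of 2 over all 20 arrays: 6 fell and 2 rose, beside 6.84% and 2.21% of all tested in the same fit.

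**Figure D3:**
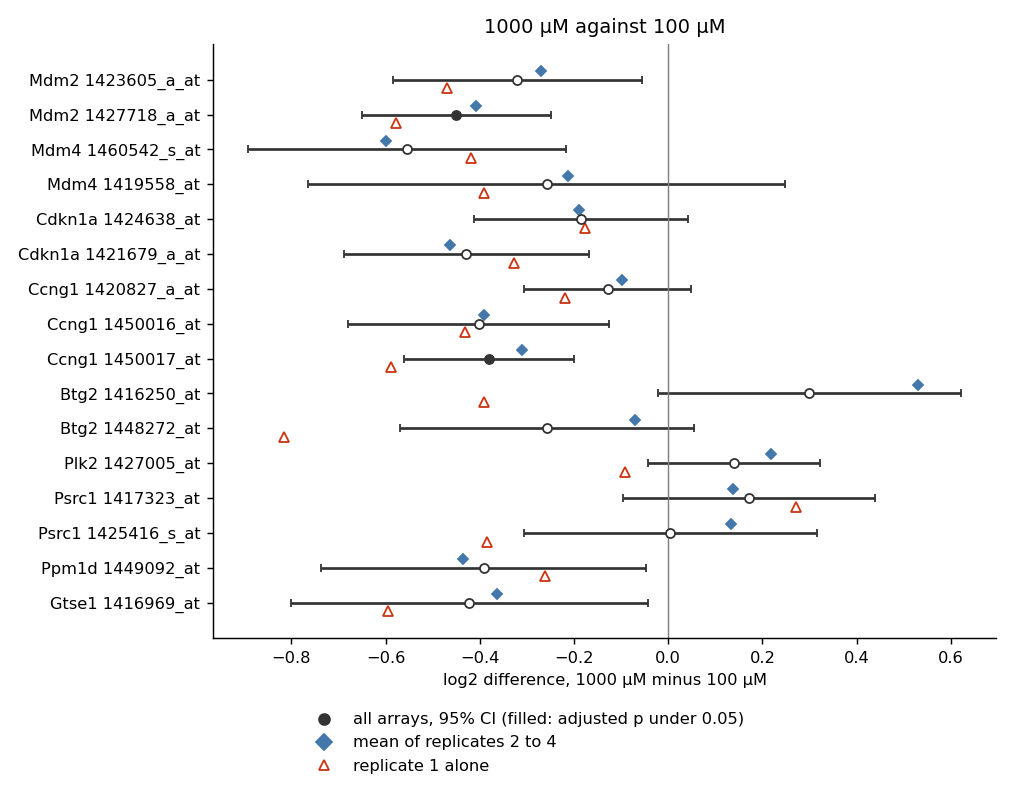
Log2 difference between 1000 and 100 µM for each tested probe set, over all arrays with its 95% confidence interval (circles, filled for an adjusted p under 0.05), as the mean of replicates 2 to 4 (diamonds) and between the replicate 1 arrays (triangles). Probe sets of Mdm2, Mdm4, Cdkn1a, Ccng1, Ppm1d and Gtse1 lie below 0 in both sets of arrays, while Btg2 1416250_at and Plk2 lie above 0 in replicates 2 to 4 and below 0 in replicate 1.

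Probe sets of the same gene were compared by the difference of their responses within each array. At 100 µM 0 of the members' pairs were called, and 0% of all 7839 pairs on the array. The largest gap among the members there was in Mdm2, whose lead probe set responded by 0.41 less than 1427718_a_at (-0.41 ± 0.13, adjusted p = 0.673). At 1000 µM 0 of the members' pairs were called, beside 1.11% of all pairs. For Btg2 the step from 100 to 1000 µM was 0.30 by 1416250_at and -0.26 by 1448272_at, a difference of 0.56 ± 0.20 that was not called (adjusted p = 0.313; 0.689% of all pairs were). This last comparison was added after the values had been seen.

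Over the 15 arrays numbered 2 to 4, which share the doses and so their large differences, Pearson's r between log2 signals ran from 0.58 (Psrc1 and Gtse1) to 0.97 over the 15 pairs of the 6 genes that rose at 100 µM. It was 0.97 between Btg2 and Plk2, 0.95 between Mdm2 and Plk2, 0.94 between Plk2 and Psrc1, and 0.92 between Mdm2 and Btg2. Ccng1 and Mdm2 gave 0.82, and Gtse1 and Mdm2 0.75. Among pairs with a gene that was not called, Ccng1 gave 0.70 with Ppm1d and 0.66 with Cdkn1a. Cdkn1a and Mdm2 gave 0.53, Ppm1d and Mdm2 0.56, and Mdm4 and Mdm2 0.22. These are descriptions of 15 arrays in 5 dose groups, with no test.

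By the same measure over all genes, Mdm2 was most like Slc19a2, a thiamine transporter (r = 0.984), Trp53inp1, a p53-induced nuclear protein (0.979), and Zfand2a (0.972). Btg2 was most like Ier5 (0.972), Oser1 (0.971) and Myc (0.967), and Plk2 like Ier5 (0.982), Ifnz (0.97) and Myc (0.97). Ier5 and Myc are immediate early genes. At 100 and 1000 µM Myc differed from untreated by 0.88 ± 0.12 and 1.37 ± 0.12, and Ier5 by 0.59 ± 0.07 and 0.69 ± 0.07. Psrc1 was most like Gas5 (0.977), Ankrd33b (0.97) and Ccl2 (0.967). Ccng1 was most like Nupr1 (0.936), Phlda3 (0.918) and Hmox1 (0.901), and Gtse1 less closely like H1f2 (0.852), Sqstm1 (0.83) and Prnp (0.812).

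Other p53 targets, a list of 57 genes beside the members, were also higher at 100 µM in part. Of 47 on the array 43 were tested. At 100 µM 12 of 43 rose and 0 fell, beside 0.993% and 0.404% of all genes, with a median of 0.21 where that of all genes was -0.02. Leaving out 1 array at a time gave 8 to 11 rises. Trp53inp1 rose by 1.69 ± 0.13, Sesn2, a stress-induced inhibitor of mTOR signalling, by 1.63 ± 0.21, and Bbc3, the BH3 protein PUMA, by 1.09 ± 0.14. Pidd1, a death-domain protein, rose by 1.07 ± 0.24 (adjusted p = 0.0258), a call that ended in replicates 2 to 4 (0.79, adjusted p = 0.0768). The cytokine gene Lif rose by 0.74 ± 0.17 (adjusted p = 0.034), which ended there too (0.49, adjusted p = 0.125).

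At 1000 µM 6 of these 43 targets rose and 3 fell, beside 2.64% and 8.05% of all genes, with a median of 0.02 where that of all genes was -0.05. With arrays centred on the median of all probe sets, 11 rose and 0 fell. Lif rose by 1.04 ± 0.17, Trp53inp1 by 0.93 ± 0.13, Sesn2 by 0.86 ± 0.21 and Bbc3 by 0.72 ± 0.14. The call for Sesn2 ended without 1000 µM replicate 3 (0.72, adjusted p = 0.0516). The 3 that fell, named after their values were seen, were Fbxw7 (-0.63 ± 0.16), Sertad1 (-0.38 ± 0.11) and Rchy1 (-0.34 ± 0.09). The list held 1 fall without 1000 µM replicate 4, 2 or 3 without any other single array, 1 under quantile normalization and 1 with arrays centred on the median of the tested probe sets. Between 100 and 1000 µM 8 of the 43 fell and 0 rose, beside 3.62% and 0.76% of all genes, among them Trp53inp1 (-0.76 ± 0.13, adjusted p = 0.00109) and Sesn2 (-0.77 ± 0.21, 0.0419).

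**Figure D4:**
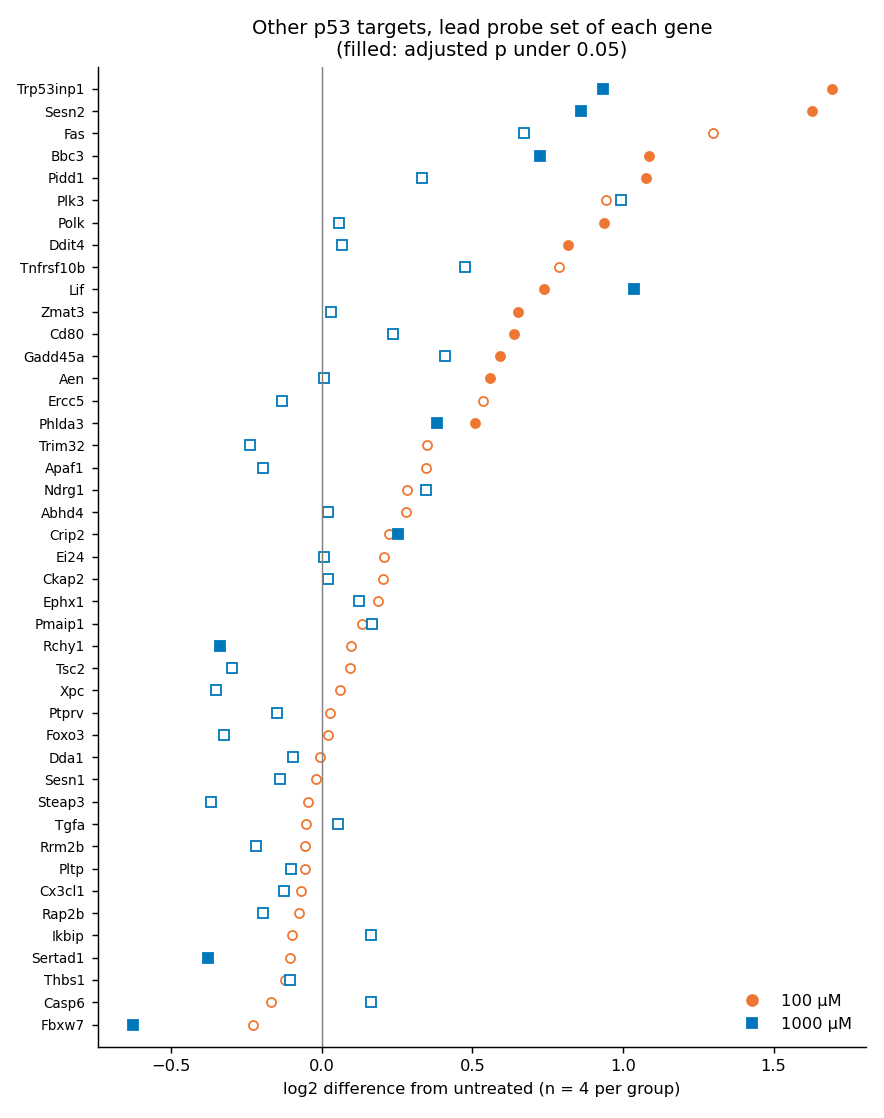
Log2 difference from untreated myotubes at 100 µM (circles) and 1000 µM (squares) for the lead probe set of each of the 43 tested p53 targets outside the member list, filled for an adjusted p under 0.05 and ordered by the value at 100 µM. The 12 filled circles all lie to the right of 0, and for most of those genes the square lies to the left of the circle.

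Of 33 tested genes whose proteins modify or bind p53, 0 were called by limma at 100 µM (4 at an unadjusted p under 0.05), with a median of -0.03 where that of all genes was -0.02. Atm came nearest (-0.53 ± 0.14, adjusted p = 0.0766) and was called in 3 alternatives, from 0.0144. At 1000 µM 1 rose and 6 fell under the authors' scaling, beside 2.64% and 8.05% of all genes, with a median of -0.10 where that of all genes was -0.05. There were 6 that rose and 2 that fell with arrays centred on the median of all probe sets, with a median of 0.10. Topors, a ubiquitin and SUMO ligase of p53, fell by 0.92 ± 0.15 on the log2 scale, and Atm, the kinase that signals DNA breaks to p53, fell by 0.68 ± 0.14, and both were called under each scaling. The acetyltransferase Crebbp (-0.59 ± 0.17), the deacetylase Sirt1 (-0.52 ± 0.10) and the 14-3-3 gene Ywhah (0.46 ± 0.14) lost their calls under at least 1 other scaling. Trp63, the p53 relative, differed by -0.70 ± 0.20 at 1000 µM (adjusted p = 0.0264), which ended under all 3 other scalings (0.0531 to 0.142), and neither probe set of Trp73 passed the filter.

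Close relatives of the members are given next. Ccng2, the other G-type cyclin, fell at the doses where Ccng1 rose, by 0.39 ± 0.08 at 100 µM and 0.50 ± 0.08 at 1000 µM on the log2 scale (adjusted p = 0.0101 and 0.000265). The call at 100 µM ended with arrays centred on the median of all probe sets (-0.31, adjusted p = 0.058), and its other probe set read -0.06 ± 0.15 there. Btg1, next of kin to Btg2, differed by 0.01 ± 0.06 and -0.07 ± 0.06. Of the TOB relatives, Tob1 differed by 0.25 ± 0.12 at 100 µM (0.467), and Tob2 fell by 0.87 ± 0.21 on the log2 scale at 1000 µM (0.0103).

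Among polo-like kinases Plk1, a kinase of mitotic entry, fell by 0.44 ± 0.10 on the log2 scale at 100 µM (adjusted p = 0.0202), where Plk2 rose. That call ended with arrays centred on the median of all probe sets (-0.36, adjusted p = 0.119) and without any 1 of 6 single arrays (0.0518 to 0.0776). Plk3, a p53 target with noisy, dim signals, differed by 0.94 ± 0.47 and 0.99 ± 0.47 and was not called (0.478 and 0.186), except at 1000 µM in 3 alternatives (0.0386 to 0.0498). Plk4 differed by -0.26 ± 0.10 and -0.27 ± 0.10, also not called. The other CIP/KIP inhibitors stayed near untreated at 100 µM, Cdkn1b at -0.12 ± 0.15 and Cdkn1c at 0.10 ± 0.25.

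Of 33 tested growth arrest genes outside the members, 3 rose and 3 fell at 100 µM, beside 0.993% and 0.404% of all genes. At 1000 µM 3 rose and 4 fell, beside 2.64% and 8.05%. The medians were -0.11 and -0.12 where those of all genes were -0.02 and -0.05. With arrays centred on the median of all probe sets, 3 rose and 0 fell at 100 µM, and 6 rose and 3 fell at 1000 µM. Gadd45b rose by 0.56 ± 0.13 and 1.02 ± 0.13 and Gadd45g by 0.50 ± 0.11 and 0.76 ± 0.11, both stress sensors that restrain cycling. Gas5, a host gene of small nucleolar RNAs that accumulates in arrested cells, rose by 0.60 ± 0.09 and 0.54 ± 0.09. At 100 µM Gadd45b and Gadd45g were not called when untreated replicate 2 or 4 or 100 µM replicate 1 or 2 was left out (0.0533 to 0.111), which left 1 rise in the list. Gas1 differed by -0.87 ± 0.25 at 1000 µM (adjusted p = 0.0307), which ended under all 3 other scalings (0.0667 to 0.0837).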

How the data were processed

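RNA of 20 C2C12 myotube samples was hybridised to Affymetrix mouse 430A arrays, 1 array per sample. The authors made signal intensity values, 1 per probe set, with Affymetrix Microarray Suite 5.0, per the submitters' processing notes, and the deposited intensities share a trimmed mean of 500.1 to 500.2 on every array.

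Signals were scaled to a common 2% trimmed mean, floored at 1 and taken to log2. The 64 control probe sets were left out, and so were 8247 that did not reach their array's 40th percentile on at least 4 arrays. One model of the 5 doses was fitted to the remaining 14379 in limma 3.58.1 (R 4.3.3), with trended empirical Bayes moderation, 15 residual degrees of freedom and Benjamini-Hochberg adjustment within each comparison, and it was first tested on simulated data. Within-gene comparisons of probe sets and the tests of single genes all come from limma. Platform annotation gave 20393 probe sets 1 symbol, 691 several and 1606 none, and the RefSeq table changed 0 symbols. Each gene was led by its tested probe set of highest mean signal.

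The members, lists and markers were chosen with earlier results of these data known. Of the other lists, up to 5 called genes with the largest changes and the members' nearest relatives were named, and for each member called by the F-test the 3 genes most like it. Genes named beyond this rule are listed with their counts, after their values were seen. The alternatives changed the scaling, filter, floor, moderation, replicate block, batch term, array weights, the groups fitted, the array left out and the call rule. Arrays carry no read depth, and their number, 4 a dose, limits the precision. Btg3 has no probe set with that symbol alone in the annotation used and was not analysed here.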

Additional observations from a re-analysis of the deposited data

Results flagged for a closer look

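Among the 80 groups of 4 arrays (16 tested probe sets at 5 doses), 3 held an array whose gap to the nearest other, as a share of the group's range, exceeded Dixon's 95% critical value. Chance gives about 1 such group in 20. Mdm2 1423605_a_at at 10 µM read 1462.3 on the array called replicate 1, where the other 3 read 1136.3 to 1144.4. Ccng1 1420827_a_at at 1 µM read 3692.5 in replicate 2, where the others read 2837.9 to 2928.9. Psrc1 1417323_at at 1000 µM read 804.5 in replicate 1, where the others read 607.1 to 622.7. The rise of Psrc1 at 1000 µM was 1.19 in replicates 2 to 4 (adjusted p = 4.03e-06 in limma).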

How the results depend on the processing

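The counts of member probe sets called at 100 µM and at 1000 µM against untreated stayed within 1.5 times of 11 and 8 in every alternative run, from 8 to 14 and from 7 to 12, and those at 1 and 10 µM stayed at 0. The count for 1000 against 100 µM, 2 as reported, was the one that moved. It was 1 with arrays centred on the median of all probe sets and 1 on that of the tested ones, 5 with the replicate block, 5 with the batch term, 8 in replicates 2 to 4, 10 with array weights, 5 with only the 2 groups compared and 0 by the crossed rule. Leaving out 1 array at a time gave 0 at 1 µM, 0 at 10 µM, 10 to 11 at 100 µM, 7 to 8 at 1000 µM, 8 to 10 for 100 against 10 µM, 2 for 1000 against 100 µM and 11 to 12 for any change. Against untreated, counts over all tested probe sets moved more than those of the members. The 175 at 100 µM became 402 with the replicate block, 570 with the batch term and 358 in replicates 2 to 4. They became 883 with array weights, 98 with only the 2 groups and 97 by the crossed rule. At 1000 µM 1574 became 771 under quantile normalization, 2434 with centring on the median of all probe sets, 2854 with the block, 3282 with the batch term, 2528 in replicates 2 to 4, 4267 with array weights and 307 by the crossed rule. The causes were not tested. The crossed rule and the fit of 2 groups have no form for any change over 5 doses and were not run for it. Nothing states that arrays with the same replicate number are paired. Over 10 pairs each, deviations of arrays with the same replicate name correlated at 0.462 to 0.61 for replicate 1. Those pairs include the 10 µM array without a number in its title, whose pair with 100 µM gave the 0.61. Among the arrays numbered 1 in their titles the range was 0.462 to 0.514. The ranges were 0.053 to 0.195, 0.109 to 0.245 and 0.01 to 0.261 for replicates 2, 3 and 4. The block, fitted without the 10 µM array that has no number, called 12 member probe sets at 100 µM and 9 at 1000 µM. Of 2844 values of single genes recomputed under an alternative, 2666 kept their status of called or not called. A further 106 lost the call, 72 gained one and 0 reversed while called. Where a value was called in neither fit, its direction was not compared. Low signal limits Mdm4 1419558_at, which reached the filter level on 9 arrays, Psrc1 1425416_s_at, on 19, and Psrc1 1451698_at, on 0. Centring on the median of the tested probe sets and the alternatives for the other lists were chosen after seeing the data.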
